A study of Mus musculus with 12 samples.

Results

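Cadherins and protocadherins are adhesion proteins that hold cells together through calcium-dependent contacts between their extracellular repeats. Members were the genes whose symbol is Cdh or Pcdh followed by a digit, or Pcdha, Pcdhb or Pcdhg followed by a digit or by a, b or c, and that had at least 100 UMIs (unique molecular identifiers, 1 per captured RNA molecule) in the matrix. Of 31053 genes listed, 92 symbols fitted the pattern and 31 passed the limit: 19 cadherins (Cdh) and 12 protocadherins (Pcdh). The study sequenced RNA of single nuclei from the caudal forelimb area, the forelimb region of primary motor cortex (M1), in the right hemisphere, from mice aged 13 weeks. The 3 trained mice (mice 2, 4 and 6; water restriction, motor training) were trained to press a lever with the left paw while head-fixed, on days 11 to 13, and earned part of their 1 mL of water per day that way. The 3 control mice (mice 1, 3 and 5; water restriction, no motor training) drank the same 1 mL per day in the home cage. All 6 mice had been held on that amount for the first 10 days, so the contrast is between training with restricted water and restricted water alone.

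Classical cadherins join cells through their outermost repeat and bind catenins inside the cell, which link them to actin. Type I members such as Cdh2 (N-cadherin) and type II members such as Cdh8 and Cdh9 are known for marking cortical layers, projection types and synapses. Non-clustered delta protocadherins bind weakly and act in axon growth, cell sorting and synapse number, and the clustered protocadherins of the alpha, beta and gamma loci give single neurons an adhesive identity.

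Kept nuclei numbered 6839, 8367 and 5265 in trained mice 2, 4 and 6, and 9651, 11817 and 7353 in control mice 1, 3 and 5. The matrix held 46798359 to 62741326 UMIs per trained mouse and 56099142 to 91495029 per control mouse, with medians of 5215 to 7205 UMIs per nucleus over the 6 mice. Clustering without the members gave 30 clusters and 21 classes, of which 20 had at least 20 nuclei in every mouse. Each class name stands for "-like", and 1 glutamatergic cluster without enough fixed markers keeps its number (Cluster 10, led by Scn7a, Hgf and Col26a1). IT, ET, NP and CT stand for intratelencephalic, extratelencephalic, near-projecting and corticothalamic neurons, OPC for oligodendrocyte precursors, and the Vip class also held nuclei with Sncg-type markers. The unnamed cluster of 393 nuclei had 386 from trained mouse 6 and entered no class. The L6b class had 126 nuclei, as few as 3 in a mouse, and was not fitted. Of 51613 distinct barcode sequences, 311 occurred in more than 1 mouse. Levels are CPM, a gene's UMIs in a class and mouse scaled to all UMIs of that class and mouse, and are compared between classes and mice for 1 gene at a time, never between genes, which differ in length. The classes were rebuilt from expression, so differences between them are described and not tested.

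Across the 20 classes each member had its own profile. The leading class stood apart from every other class in all 6 mice for 14 of 31 members, and 8 members led by at least 2 times the next class. The same counts were not made over all genes, so they cannot be read as a trait of the family. The Sst interneurons led 5 members. Astrocytes, differentiating oligodendrocytes, L5/6 NP neurons and the pericyte and smooth muscle class led 3 each, and no other class led more than 2. Neighbours in the order of levels seldom separated: the ranges over 6 mice overlapped in 540 of 589 neighbouring pairs of classes (91.7%).

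**Figure D1:**
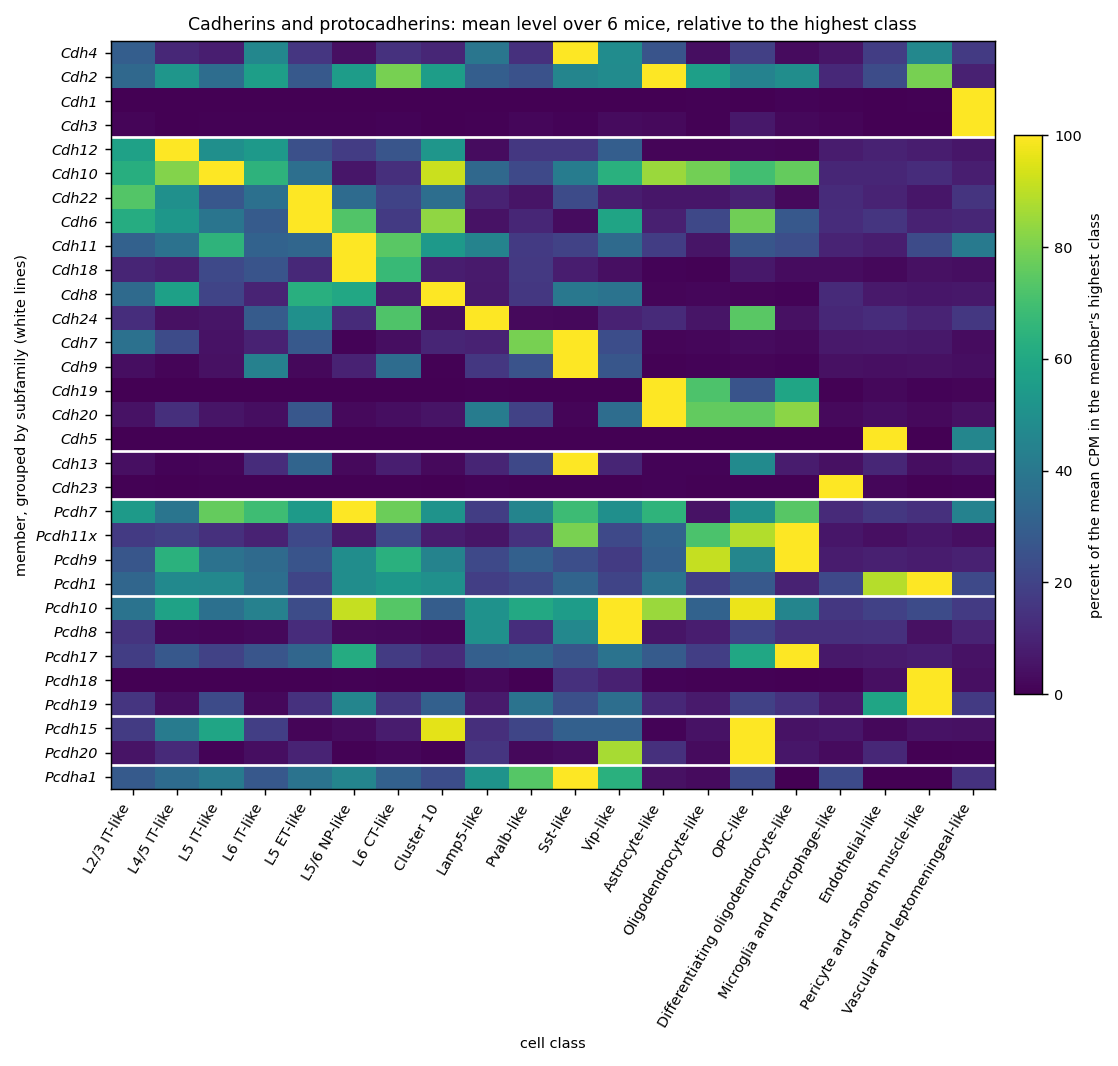
Mean CPM over 6 mice of each of the 31 members (rows, grouped by subfamily between white lines) in each of 20 classes (columns), as a percent of the member's own highest class. Cdh23, Cdh1, Cdh5 and Pcdh18 are bright in 1 or 2 classes, whereas Pcdh9, Cdh10 and Cdh2 are spread over many.

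Type I cadherins split between a widely detected pair and a leptomeningeal pair. Cdh2, the main neural cadherin of synapses and astrocyte contacts, ranged from 524 to 607 CPM over 6 mice in astrocytes, with a median of 568. It averaged 450 ± 18.8 CPM in L6 CT neurons, 450 ± 57.5 CPM in the pericyte and smooth muscle class and 51.1 ± 20.8 CPM in the vascular and leptomeningeal class (SD, n = 6 mice). Astrocytes stood above all other classes, only just so above pericytes and smooth muscle, while the next classes overlapped one another. Cdh4 (R-cadherin) was highest in Sst interneurons, from 184 to 279 CPM with a median of 212, against 108 ± 9.42 CPM in Vip interneurons. Every mouse had more Cdh4 in Sst nuclei than any mouse had in another class.

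Cdh1 (E-cadherin), the epithelial cadherin, ranged from 68.6 to 164 CPM in the vascular and leptomeningeal class with a median of 113, and averaged at most 1.21 CPM in the other classes. Cdh3 (P-cadherin) ranged from 4.85 to 44.0 CPM there with a median of 21.1, and averaged at most 1.48 CPM elsewhere. The class held 3 clusters, and the 2 genes divided them. Pooled over mice, Cdh1 stood at 19.1 CPM in the cluster of 676 nuclei, 225 CPM in that of 165 nuclei and 643 CPM in that of 79 nuclei. Cdh3 stood at 34.5 CPM in the cluster of 676 nuclei, at 0 UMIs in that of 165 nuclei (0 of 636757, which allows up to 4.71 CPM) and at 7.94 CPM in that of 79 nuclei. Cdh11, a mesenchymal type II cadherin, stood at 141, 559 and 183 CPM in the same 3 clusters. Cdh1 was thus high where Cdh3 was low, and Cdh11 was highest in the middle cluster.

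Type II cadherins divided the neuron classes. Cdh12, whose gene spans more than a megabase on chromosome 15 (mm10, 20449265 to 21589533, plus strand), ranged from 1749 to 2077 CPM in L4/5 IT neurons with a median of 1917. It averaged 1103 CPM in L2/3 IT, 1035 CPM in L6 IT and 23.8 CPM in astrocytes, and L4/5 IT stood above every other class. Cdh18 (chromosome 15, 22549022 to 23474418, plus strand) ranged from 3098 to 3917 CPM in L5/6 NP neurons with a median of 3355, and from 2062 to 2532 CPM in L6 CT neurons with a median of 2380. The next class, L6 IT, averaged 904 CPM, so the deep-layer NP and CT classes stood apart from all others and from each other.

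Cdh8, a cadherin of cortical and thalamic subdivisions, was highest in Cluster 10, from 603 to 926 CPM with a median of 733, against 474 CPM in L5 ET, 450 CPM in L5/6 NP 60.1 CPM in L6 CT and 11.0 CPM in astrocytes. Its Cluster 10 range overlapped that of L4/5 IT neurons, 310 to 616 CPM. Cdh9, known for its part in mossy fibre synapses of the mouse hippocampus, ranged from 544 to 774 CPM in Sst interneurons with a median of 630. It averaged 280 CPM in L6 IT, 224 CPM in L6 CT and 3.46 CPM in Cluster 10. Cdh7 was shared by 2 interneuron classes, at 284 to 391.8 CPM in Sst and 228 to 276 CPM in Pvalb interneurons, with L2/3 IT next at 120 CPM. Sst interneurons were also highest in Cdh13 (T-cadherin, which is tethered by a lipid anchor and lacks the catenin-binding tail), from 949 to 1220 CPM with a median of 1132, against 533 ± 53.4 CPM in OPC.

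**Figure D2:**
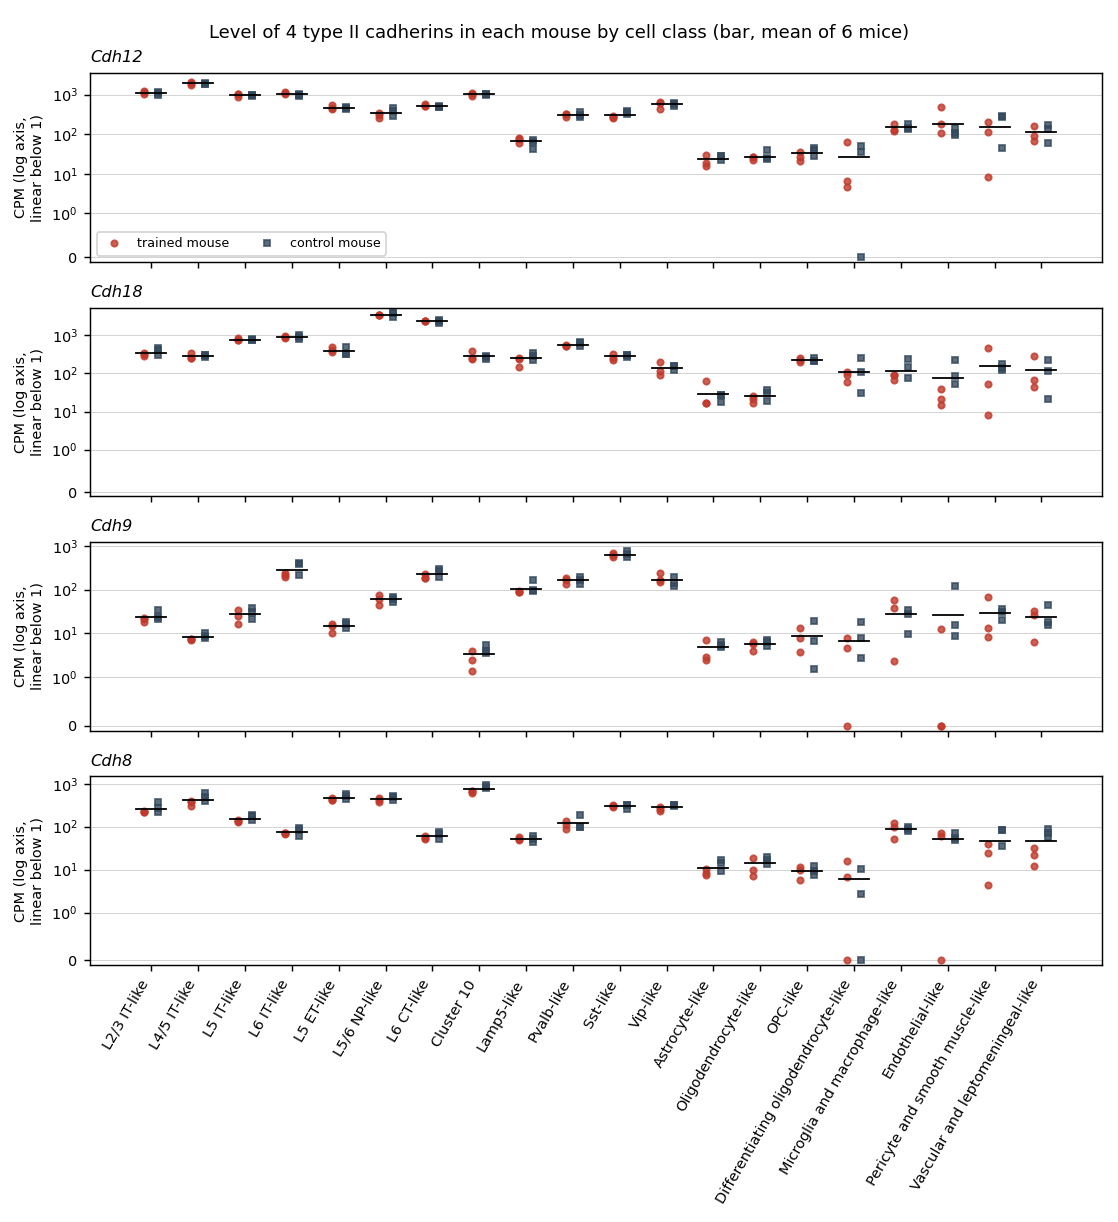
CPM in each trained (red circle) and control (dark square) mouse of 4 type II cadherins in the 20 classes, on a log axis that is linear below 1, with a bar at the mean of 6 mice. Cdh12 peaks in L4/5 IT at 1749 to 2077 CPM, Cdh18 in L5/6 NP and L6 CT, Cdh9 in Sst at 544 to 774 CPM and Cdh8 in Cluster 10.

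Cdh11 ranged from 599 to 704 CPM in L5/6 NP with a median of 647, followed by L6 CT at 482 CPM and L5 IT at 422 CPM. Cdh10 was broad, at 881 CPM in L5 IT, 809 CPM in Cluster 10, 748 CPM in astrocytes and 53.6 CPM in L5/6 NP, with L5 IT overlapping several other classes. Cdh6 averaged 236 ± 22.2 CPM in L5 ET, 197 ± 20.4 CPM in Cluster 10 and 7.86 ± 2.61 CPM in Sst (SD, n = 6 mice). Cdh22 averaged 96.5 ± 21.7 CPM in L5 ET and 70.7 ± 16.3 CPM in L2/3 IT, whose ranges overlapped. Cdh24 was sparse, at 23.4 ± 4.79 CPM in Lamp5 interneurons.

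Lamp5 interneurons came in 2 clusters that used different members. The cluster of 430 nuclei averaged 489 CPM of Cdh18 over 6 mice, the cluster of 474 nuclei 17.97 CPM. Pcdh7 averaged 667 CPM in the smaller and 92.7 CPM in the larger cluster, and Cdh9 185 and 23.3 CPM in the same order. Pcdh15 went the other way, at 131 CPM in the smaller and 710 CPM in the larger cluster. The ranges over mice did not overlap for any of these 4 genes.

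A pair of type II cadherins was highest in glia of the neural lineage. Cdh19 ranged from 662 to 1248 CPM in astrocytes with a median of 839, averaged 646 CPM in oligodendrocytes, 528 CPM in differentiating oligodendrocytes and 234 CPM in OPC, and then 17.9 CPM in endothelial nuclei. Cdh20 averaged 833 ± 372 CPM in astrocytes, 687 ± 130 CPM in differentiating oligodendrocytes, 632 ± 115 CPM in oligodendrocytes and 628 ± 109 CPM in OPC (SD, n = 6 mice). It was also present in neurons, at 351 CPM in Lamp5, 299 CPM in Vip, 225 CPM in L5 ET and 165 CPM in Pvalb, and averaged at least 10.6 CPM in every class. The wide spread of Cdh20 in astrocytes came from trained mouse 2, at 1554 CPM, and is taken up with the contrast.

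Vascular and immune classes had members of their own. Cdh23 (ENSMUSG00000012819, mm10 chromosome 10, 60302748 to 60696490, minus strand), known as a component of the tip links of inner-ear hair cells, ranged from 261 to 395 CPM in the microglia and macrophage class with a median of 361, which is 62.6 times the mean of the next class, endothelial nuclei, at 5.56 CPM. A Cdh23 UMI was found in 44.3% of 2672 nuclei of the class (Wilson 95% interval 42.5 to 46.2) at a median of 1521.5 UMIs per nucleus. In astrocytes, at a median of 2773.5 UMIs, the share was 0.906% of 6070 (interval 0.697 to 1.18). Such intervals cover counting error only. Within the class, the main cluster of 2557 nuclei had 408 CPM pooled over mice, and the cluster of 92 nuclei led by the macrophage genes F13a1 and Mrc1 had 24.6 CPM. The third cluster, of 23 nuclei, had 70.8 CPM, so the level lay mostly in the microglial cluster. On the other strand Cdh23 is overlapped by Vsir and Gm17455. If counting ignored strand, their reads could not be told apart from those of Cdh23, so its level in this class is uncertain.

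The promoter of Cdh23 is shown because of that single-class profile: 300 bases of the RefSeq start on GRCm38.p6, chr10:60696441-60696740, minus strand, with each CG pair in capitals.

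Cdh23: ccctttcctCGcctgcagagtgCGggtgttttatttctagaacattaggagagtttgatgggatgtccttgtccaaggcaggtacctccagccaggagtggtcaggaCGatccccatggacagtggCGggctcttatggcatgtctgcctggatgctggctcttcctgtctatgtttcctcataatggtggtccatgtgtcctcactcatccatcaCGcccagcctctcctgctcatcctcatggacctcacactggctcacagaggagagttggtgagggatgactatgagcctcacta

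It held 5 CG pairs, and 62.0% of 32851 windows of the same length, over all genes, held at least as many. The letters GAGGAA, bound by ETS factors such as PU.1 of microglia, were found 2 times on either strand in this window. They were in 28.3% of all windows and in 8 of 23 windows of the 20 members with a RefSeq window. Such matches describe letters and are not sites.

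Cdh5 (VE-cadherin), which seals endothelial junctions, ranged from 136 to 298 CPM in endothelial nuclei with a median of 261. It ranged from 82.4 to 122 CPM in the vascular and leptomeningeal class and averaged at most 0.726 CPM elsewhere. A Cdh5 UMI was found in 41.8% of 287 endothelial nuclei, in 25.9% of 920 vascular and leptomeningeal nuclei and in 0 of 676 pericyte and smooth muscle nuclei, which allows a share of up to 0.444%. The 3 leptomeningeal clusters were alike, at 113, 100.5 and 131 CPM pooled over mice. Pcdh18, a delta-2 protocadherin, ranged from 72.9 to 172 CPM in the pericyte and smooth muscle class with a median of 135, against 18.4 CPM in Sst. Pcdh19, an X-linked delta-2 protocadherin whose loss causes an epilepsy of girls and women, ranged from 144 to 218 CPM in pericytes and smooth muscle, from 50.8 to 166 CPM in endothelial nuclei, and averaged 79.5 CPM in L5/6 NP, 66.0 CPM in Pvalb and 3.70 CPM in L6 IT. Pcdh1 averaged 94.0 ± 21.4 CPM in pericytes and smooth muscle and 83.7 ± 32.7 CPM in endothelial nuclei (SD, n = 6 mice), with overlapping ranges.

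Delta-1 protocadherins were broad. Pcdh9 averaged 12411 ± 2670 CPM in differentiating oligodendrocytes, 11320 ± 1439 CPM in oligodendrocytes, 7934 CPM in L4/5 IT and 940 CPM in pericytes and smooth muscle. Pcdh7 ranged from 1923 to 2243 CPM in L5/6 NP with a median of 2010, and oligodendrocytes were lowest at 103 CPM. Pcdh11x averaged 732 CPM in differentiating oligodendrocytes, 648 CPM in OPC and 584 CPM in Sst, with overlapping ranges. Pcdh7 and Pcdh9 thus stood at opposite ends in mature oligodendrocytes.

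Among the delta-2 members, Pcdh10 (OL-protocadherin) averaged 207 CPM in Vip, 202 CPM in OPC, 190 CPM in L5/6 NP and 176 CPM in astrocytes, all overlapping. Pcdh8, an activity-regulated synaptic protocadherin, ranged from 39.4 to 83.2 CPM in Vip interneurons with a median of 58.1, against 29.5 CPM in Lamp5 and 27.4 CPM in Sst. Pcdh17, known from corticostriatal synapses, averaged 528 ± 186 CPM in differentiating oligodendrocytes and 324 ± 26.4 CPM in L5/6 NP (SD, n = 6 mice). On the other strand it is overlapped by 9630013A20Rik, a marker of that oligodendrocyte class at a mean of 3670 CPM, and the sources used here do not give whether counting used strand. Reads of the pair could not be told apart without strand, so the Pcdh17 level there is uncertain.

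Pcdh15, the partner of Cdh23 in hair-cell tip links, ranged from 2851 to 3587 CPM in OPC with a median of 3195 and from 2626 to 3527 CPM in Cluster 10 with a median of 3032. The ranges of these classes overlapped. L5 IT followed at 1853 CPM, and astrocytes were lowest at 24.9 CPM. The tip-link partners had different leading classes. Counts given to Cdh23 were led by the microglia and macrophage class, with the limit on strand given above, and Pcdh15 by OPC and Cluster 10. Pcdh20 averaged 40.4 ± 8.51 CPM in OPC and 35.1 ± 6.76 CPM in Vip interneurons, and 6.19 CPM in Lamp5, the next class (SD, n = 6 mice).

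Of 57 clustered protocadherin symbols, 56 were listed at 0 UMIs and only Pcdha1 was counted, with 329 UMIs. All 57 overlap another gene on the same strand in the annotation, so a 0 here is no measure of absence. Pcdha1 averaged 0.847 CPM over all nuclei and 2.33 CPM in Sst, and was too low to be tested in any class. The members nearest the limit of 100 UMIs were Cdh3 with 170 and Pcdha1, and the nearest below it were Cdh26 with 86, Cdh16 with 53, Cdh17 with 35 and Pcdh12 with 16. Cdh15 was at 0 and lies in the span of Gm20388.

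Over the 20 classes, the log2 levels (1 CPM added) of Cdh12 and Cdh8 had r = 0.85, the closest pair after Cdh1 and Cdh3, and those of Cdh12 and Cdh19 had r = -0.89, the lowest of all pairs. Cdh1 and Cdh3 had r = 0.95, which is set by the vascular and leptomeningeal class, the only one where either averaged above 1.48 CPM, and hides their division within it. All points share the same 6 mice and their depth, and classes are not independent. In the vascular and microglial classes, 9 members abundant in neurons, among them Cdh8, Cdh9 and Cdh12, stood at 8.5 to 37.0% of their level over all nuclei, apart from Cdh11 at 54.6% in pericytes and smooth muscle and 97.2% in the leptomeningeal class. In astrocytes Cdh8, Cdh9, Cdh12, Cdh18 and Pcdh15 stood at 2.9 to 4.6%. Medians were 1511.5 to 2393.5 UMIs per nucleus in the vascular and microglial classes and 2773.5 in astrocytes. Within the microglial class, a cluster of 23 nuclei had a median of 10585 UMIs, against 1502 in the main cluster. Cdh8, Cdh9 and Cdh12 averaged 18.8, 4.27 and 29.3 CPM over 6 mice in that main cluster, of 2557 nuclei. In the main astrocyte cluster they averaged 9.81, 4.71 and 22.2 CPM. The percentages of the microglial class thus do not describe its main cluster, and part of the class level came from smaller clusters. The part of free RNA and of each small cluster in these levels was not tested.

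The contrast asked whether training with restricted water moved the members beyond restricted water alone. No member passed in any class: 0 of 412 member and class tests had an adjusted p under 0.05 by edgeR (quasi-likelihood F test, Benjamini-Hochberg over all genes tested in that class), where 0.0103% of all 204616 tests did, all of them in astrocytes. DESeq2 called 1, Pcdh19 in L5 IT neurons, against 118 of all 192986 tests (0.0611%), of which 26 were in L5 IT. Without trained mouse 6, edgeR called 5, all lower and all in pericytes and smooth muscle (Cdh8, Cdh18, Pcdh7, Pcdh9 and Pcdh15), a class that then held 211 of all 218 calls. Without trained mouse 4 it called 1, Cdh20 in astrocytes, a class that then held 76 of all 88 calls. At an unadjusted p under 0.05 stood 45 of the 412 tests (10.9%, against 4.03% of all tests), 13 with higher (3.16%, against 2.27%) and 32 with lower level in trained mice (7.77%, against 1.76%). The 3 trained mice lay wholly above the 3 controls in 11 tests (2.67%, against 4.05% of all tests) and wholly below in 36 (8.74%, against 5.42%), 47 in all (11.4%, against 9.48%). The lower side was thus more frequent among the members than among all genes, and the tests of 1 gene in several classes share mice. Some members recur: Pcdh7 and Cdh10 were wholly lower in 5 classes each and Pcdh10 in 4, and all 3 were wholly higher in 0. All genes were not matched to the members in level, so the shares do not show a shift of the whole family.

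By subfamily, 23 of 184 type II and 15 of 66 delta-2 tests had an unadjusted p under 0.05, with median log2 fold changes (trained over control) of -0.09 and -0.10. The other non-clustered protocadherins (Pcdh15 and Pcdh20) had 6 of 25, with a median of -0.05. None of 76 delta-1 tests, 1 of 39 type I tests and 0 of 22 tests of the other cadherins (Cdh13 and Cdh23) did, with medians of -0.05, 0.04 and 0.13. Over all genes the share was 4.03% and the median -0.0014. By class, 7 of 21 members tested had such a p in L5 IT (33.3%, against 5.28% of all genes) and 7 of 21 in Cluster 10 (33.3%, against 4.84%). In astrocytes it was 5 of 24 (20.8%, against 7.62%) and in L4/5 IT 4 of 22 (18.2%, against 3.4%). In the microglia and macrophage class it was 4 of 20 (20%, against 4.79%). That class sums several clusters, and the smallest held 1 to 8 nuclei per mouse at a median of 10585 UMIs. The part of the smaller clusters in these differences was not tested. The count was 0 in L5 ET, L5/6 NP, Pvalb and oligodendrocytes, where 3.88%, 2.11%, 2.32% and 4.13% of all genes had such a p. A p that misses the threshold does not show that levels were equal, so the leading values are given with 95% intervals.

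Pcdh19 came closest. The gene (ENSMUSG00000051323) lies on chromosome X (mm10, 133582860 to 133688987, minus strand). In L5 IT neurons it stood at 24.8, 28.2 and 30.4 CPM in trained mice 2, 4 and 6, against 47.1, 47.4 and 60.7 CPM in control mice 1, 3 and 5. All trained mice lay below all controls. The log2 fold change was -0.86 ± 0.13 (SE; interval -1.12 to -0.60), with an adjusted p of 0.126 by edgeR and 0.000778 by DESeq2. The adjusted p by edgeR was 0.0356 with the median UMI count of each mouse as a covariate, and 0.0982 to 0.686 when single mice were left out. In L6 CT neurons Pcdh19 stood at 20.3, 16.4 and 21.9 CPM in trained mice, against 39.8, 23.3 and 37.2 CPM in controls, a log2 fold change of -0.76 ± 0.23 (adjusted p = 1.0 by edgeR). The trained mice were lower there too, and again in L4/5 IT, where levels were 4.49 to 5.09 CPM in trained and 6.02 to 11.1 CPM in control mice. In its leading class, pericytes and smooth muscle, the interval of Pcdh19 took in 0.

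The Pcdh19 promoter is shown as that of the member with the smallest p: RefSeq, GRCm38.p6, chrX:133688944-133689243, minus strand, CG pairs in capitals.

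Pcdh19: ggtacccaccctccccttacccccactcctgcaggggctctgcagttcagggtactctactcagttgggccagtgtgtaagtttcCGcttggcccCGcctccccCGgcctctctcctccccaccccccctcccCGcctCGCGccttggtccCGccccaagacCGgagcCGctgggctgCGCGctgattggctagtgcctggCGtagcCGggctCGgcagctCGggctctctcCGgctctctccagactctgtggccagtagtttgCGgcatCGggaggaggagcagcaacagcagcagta

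It held 18 CG pairs, the median of the member windows, which ranged from 2 to 38. The median over all windows was 7, and 29.7% of all windows held at least 18. The cAMP response element TGACGTCA, which reads the same on both strands, was in 0 of 23 member windows and in 1.79% of all windows.

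Pcdh17 (ENSMUSG00000035566, mm10 chromosome 14, 84443563 to 84539002, plus strand) was higher in trained mice in L2/3 IT, L5 IT and Cluster 10 neurons and lower in astrocytes. In L5 IT neurons it stood at 126, 106 and 117 CPM in trained mice 2, 4 and 6, against 90.9, 92.5 and 97.6 CPM in control mice 1, 3 and 5 (log2 fold change 0.34 ± 0.10, SE; adjusted p = 0.496 by edgeR). In Cluster 10 it stood at 64.3, 66.0 and 96.8 CPM in trained mice, against 50.0, 51.5 and 56.8 CPM in controls (0.57 ± 0.16; adjusted p = 0.798). In L2/3 IT neurons the values were 108, 110 and 99.1 CPM in trained and 80.8, 88.6 and 93.7 CPM in control mice (0.30 ± 0.09; adjusted p = 1.0). The trained mice lay above the controls in all 3 classes. In astrocytes, Pcdh17 stood at 117, 125 and 132 CPM in trained mice, against 206, 162 and 171 CPM in controls, so the trained mice were below (-0.47 ± 0.14; adjusted p = 0.278). The antisense neighbour 9630013A20Rik averaged 2.19 to 4.49 CPM in the 3 neuron classes. In astrocytes it stood at 3.89, 5.00 and 6.95 CPM in trained mice, against 18.6, 8.43 and 7.93 CPM in controls, so it was lower there too, and its part in the Pcdh17 counts was not tested.

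The difference of effects was tested in 1 fit of both classes with mouse as a block. The class pairs were taken because their groups already lay apart in opposite directions, so the p-values restate that choice and are no independent support. It was 1.01 ± 0.17 (log2, SE) for Cluster 10 minus astrocytes, 0.81 ± 0.15 for L5 IT minus astrocytes and 0.77 ± 0.15 for L2/3 IT minus astrocytes. Adjusted p-values by edgeR over all genes were 0.00858, 0.0244 and 0.0247, and none of the 3 stayed under 0.05 without control mouse 1 or without trained mouse 6. Without control mouse 1 the adjusted p-values by edgeR were 0.149, 0.217 and 0.285 in the same order of classes, and without trained mouse 6 they were 0.176, 0.0850 and 0.0519. Without control mouse 5 they were 0.0686 for Cluster 10 and 0.0696 for L5 IT. Without trained mouse 2 they were 0.164 for L5 IT and 0.113 for L2/3 IT, and without trained mouse 4 the value for L2/3 IT was 0.0519. The differences themselves lay between 0.63 and 1.10 when single mice were left out.

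**Figure D3:**
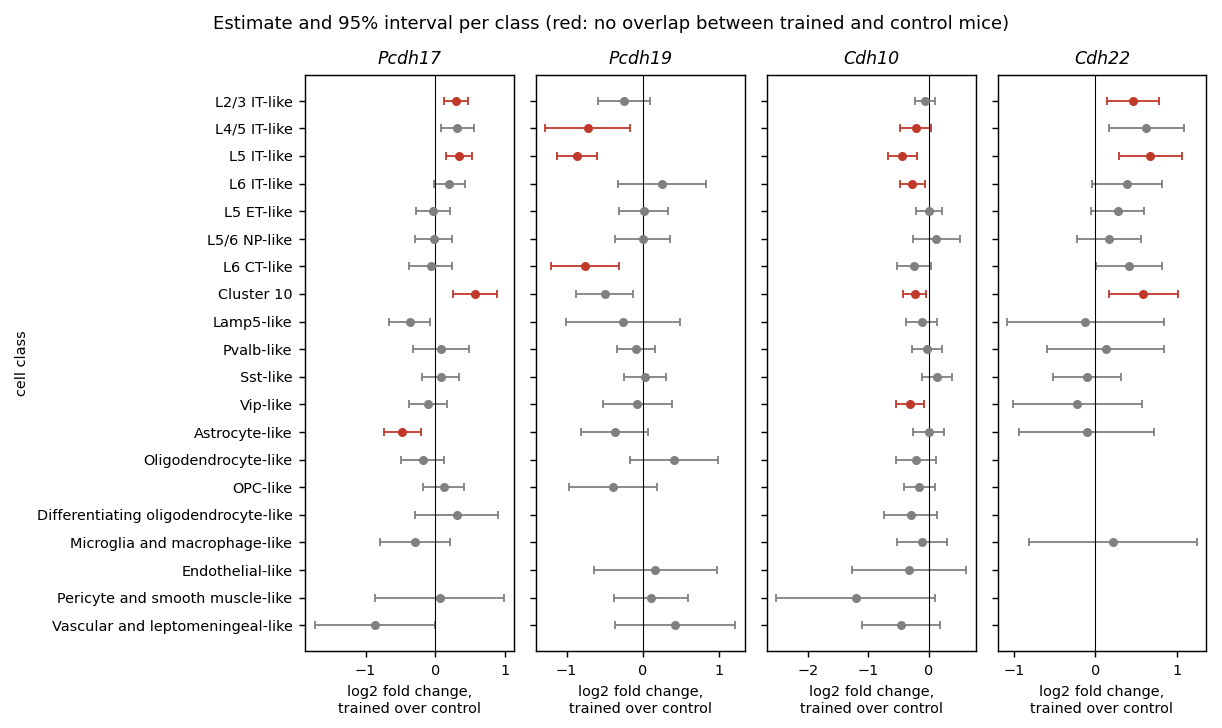
Estimated log2 fold change, trained over control, with its 95% interval for 4 members in each class where they were tested, in red where the 3 trained and 3 control mice did not overlap. Pcdh17 lies right of 0 in L2/3 IT, L5 IT and Cluster 10 and left of it in astrocytes, Pcdh19 and Cdh10 have red points only left of 0 and Cdh22 only right of it.

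In astrocytes, Pcdh10 and Cdh20 were also among the 15 pairs of smallest p. Pcdh10 stood at 151, 142 and 133 CPM in trained mice 2, 4 and 6, against 225, 186 and 218 CPM in control mice 1, 3 and 5. The groups did not overlap, with a log2 fold change of -0.51 ± 0.13 (SE; interval -0.76 to -0.26) and an adjusted p of 0.190 by edgeR. Its antisense neighbour 1700027H10Rik was also lower, at 9.43 to 14.6 CPM in trained and 17.4 to 31.2 CPM in control mice, and the 2 could not be told apart if counting ignored strand. Over the classes, Pcdh10 was lower in trained mice in 18 of 19 (median log2 fold change -0.26), Cdh11 in 17 of 19 (-0.21) and Cdh10 in 17 of 20 (-0.22). These counts were picked after the values were seen, and the classes share the same mice. The share of all genes with signs as one-sided was not counted.

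Cdh20 (ENSMUSG00000050840, mm10 chromosome 1, 104768529 to 104995481, plus strand) in astrocytes stood at 1554, 683 and 910 CPM in trained mice 2, 4 and 6, against 611, 655 and 583 CPM in control mice 1, 3 and 5. All trained mice were above the controls, trained mouse 4 by little and trained mouse 2 by far. Trained mouse 2 also had the highest mitochondrial share of UMIs, 0.0561%, against 0.0248 and 0.0290% in trained mice 4 and 6 and 0.0183 to 0.0254% in controls. The log2 fold change was 0.82 ± 0.23 (SE; interval 0.38 to 1.27), with an adjusted p of 0.262 by edgeR. It was 0.28 with that share as a covariate (adjusted p = 0.760), 0.43 without trained mouse 2, and 1.06 with an adjusted p of 0.0077 without trained mouse 4. The sum of 9 striatal markers in astrocytes was 2581, 672 and 843 CPM in trained mice, against 251, 398 and 170 CPM in controls. Only 1 of them, Pde10a, was higher in every trained mouse. It made up most of that sum, at 2561, 638 and 817 CPM in trained and 219, 361 and 135 CPM in control mice. Pde10a was also high in cortical neurons, at 1116 to 2071 CPM in L4/5 IT and 1401 to 2739 CPM in Cluster 10. In astrocytes the other 8 markers were at 0 to 22.9 CPM with overlapping groups, and Drd1 and Drd2, which define striatal neurons, were at most 1.65 CPM. The part of striatal tissue in the Cdh20 values was not tested.

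Cdh20 went the other way in the microglia and macrophage class, at 15.7, 14.4 and 19.5 CPM in trained and 27.4, 22.3 and 32.3 CPM in control mice. The main cluster of that class, of 2557 nuclei, averaged 8.47 CPM (30 UMIs), so part of the class level came from smaller clusters. The smallest held 3, 1 and 4 nuclei in trained mice 2, 4 and 6, and 4, 8 and 3 in control mice 1, 3 and 5. The part of the smaller clusters in the difference was not tested. In L5 IT neurons Cdh20 was lower in trained mice too, at 41.0, 37.0 and 41.2 CPM in trained and 47.2, 43.0 and 74.3 CPM in control mice. The difference of effects was 1.14 ± 0.24 (log2, SE) for astrocytes minus L5 IT (adjusted p = 0.0510 by edgeR) and 1.55 ± 0.34 for astrocytes minus the microglia and macrophage class (adjusted p = 0.110). The Cdh20 promoter is shown for comparison with that of Pcdh19, which holds as many CG pairs: RefSeq, GRCm38.p6, chr1:104768270-104768569, plus strand, CG pairs in capitals.

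Cdh20: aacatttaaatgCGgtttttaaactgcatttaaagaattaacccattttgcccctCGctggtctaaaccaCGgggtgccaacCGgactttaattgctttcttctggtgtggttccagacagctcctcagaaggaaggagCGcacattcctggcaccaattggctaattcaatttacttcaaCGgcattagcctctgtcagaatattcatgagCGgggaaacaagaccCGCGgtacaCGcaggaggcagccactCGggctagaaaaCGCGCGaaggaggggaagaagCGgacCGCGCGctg

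Its GC content was 50.7%, against 67.7% in the Pcdh19 window and a median of 52.7% over all windows. The letters ACAAAG and ACAATG, read by SOX factors, were absent from it on both strands and were in 28.6% of all windows and 4 of 23 member windows.

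In L5 IT neurons 2 further type II cadherins had small p. Cdh10 stood at 698, 793 and 729 CPM in trained mice 2, 4 and 6, against 1127, 851 and 1086 CPM in control mice 1, 3 and 5 (log2 fold change -0.44 ± 0.12, SE; adjusted p = 0.535 by edgeR). Cdh22 stood at 36.2, 26.3 and 34.4 CPM in trained mice, against 23.9, 21.9 and 15.0 CPM in controls (0.67 ± 0.20; adjusted p = 0.549). Groups did not overlap for either. Cdh22 was also wholly higher in trained mice in L2/3 IT, at 71.1 to 92.8 CPM against 44.3 to 70.2 CPM in controls, and in Cluster 10, at 35.8 to 52.1 CPM against 19.3 to 32.8 CPM in controls.

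In Cluster 10, Cdh8 stood at 603, 661 and 683 CPM in trained mice 2, 4 and 6, against 926, 784 and 855 CPM in control mice 1, 3 and 5 (log2 fold change -0.35 ± 0.10, SE; adjusted p = 0.798 by edgeR). Pcdh15 stood at 3527, 3226 and 3144 CPM in trained mice, against 2787, 2626 and 2920 CPM in controls (0.29 ± 0.08; adjusted p = 0.798). Neither overlapped, with the cluster's own leading cadherin lower and its leading protocadherin higher in trained mice. Cdh12 in Sst interneurons stood at 258, 296 and 267 CPM in trained mice, against 360, 377 and 321 CPM in controls (-0.34 ± 0.10; adjusted p = 1.0). Cdh9 in L6 IT neurons overlapped, at 239, 197 and 218 CPM in trained mice against 410, 222 and 394 CPM in controls (-0.62 ± 0.20; adjusted p = 1.0).

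**Figure D4:**
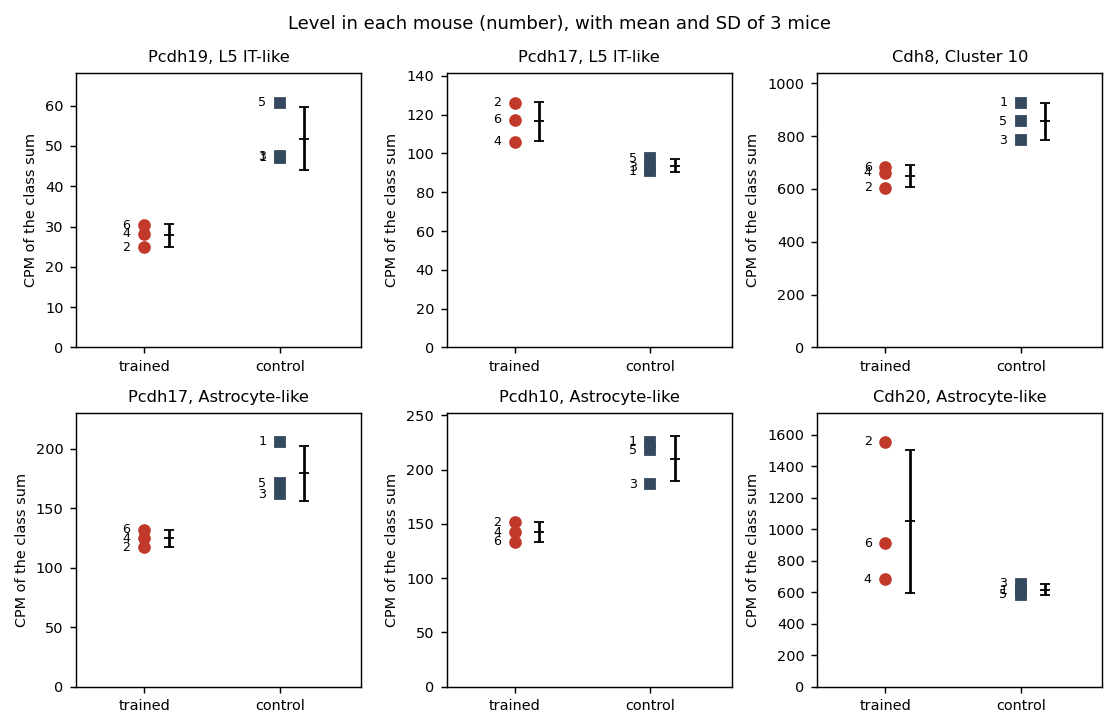
CPM in each mouse (numbered points) of 6 member and class pairs, trained left and control right, with the mean and SD of 3 mice beside the points. Pcdh19 in L5 IT separates, with trained mice at 24.8 to 30.4 CPM and controls at 47.1 to 60.7 CPM, while Cdh20 in astrocytes is spread by trained mouse 2 at 1554 CPM.

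The largest fold among the 15 pairs of smallest p was that of Cdh8 in the vascular and leptomeningeal class, at 21.7, 31.4 and 12.3 CPM in trained mice 2, 4 and 6, against 89.6, 57.4 and 71.7 CPM in control mice 1, 3 and 5. The log2 fold change was -1.64 ± 0.35 (SE), with an adjusted p of 0.314 by edgeR, and the groups did not overlap. It rested on 132 UMIs in all, at 19.7% of the level over all nuclei. The cluster of the class with more Cdh8 (55.6 CPM pooled over mice, against 22.0 and 39.7 CPM in the other two) made up 31 of 68, 180 of 235 and 89 of 151 nuclei in trained mice 2, 4 and 6, against 78 of 109, 198 of 247 and 100 of 110 in control mice 1, 3 and 5. The part of free RNA and of these shares in the difference was not tested. Outside those 15 pairs, Pcdh15 in pericytes and smooth muscle had a larger fold, -1.74 ± 0.61, with groups that overlapped (53.5, 16.4 and 146 CPM in trained mice, against 136, 168 and 443 CPM in controls; adjusted p = 1.0 by edgeR). Cdh23 in microglia, the member's own class, stood at 391.7, 367.7 and 394.8 CPM in trained mice, against 318, 354 and 261 CPM in controls (0.30 ± 0.14, SE; unadjusted p = 0.05001, adjusted p = 1.0 by edgeR).

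Summed over all nuclei, 0 of 31 members passed (0% of all genes passed too by edgeR), and DESeq2 called 0 members and 6 genes in all. At an unadjusted p under 0.05 stood 5 (16.1%, against 3.25% of all genes), each lower in trained mice (1.41% of all genes were lower at that p). The trained mice lay wholly below the controls for 5 of 31 members (16.1%, against 5.19% of all genes). These were the same 5, so the 2 counts are not separate support. Pcdh10 stood at 94.4, 88.7 and 99.5 CPM in trained mice 2, 4 and 6, against 123, 103 and 115 CPM in control mice 1, 3 and 5 (log2 fold change -0.25 ± 0.09, SE). Pcdh19 stood at 26.9, 26.2 and 27.7 CPM in trained mice, against 34.8, 28.8 and 35.7 CPM in controls (-0.28 ± 0.10). Groups did not overlap for either, nor for Cdh8 (-0.29 ± 0.11), Cdh10 (-0.20 ± 0.08) or Pcdh20 (-0.39 ± 0.17). The adjusted p by edgeR was 1.0 for all 5. In such sums, a lower share of a class and a lower level in its nuclei cannot be told apart.

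Genes that work with the members were read from lists chosen with earlier results known. Of 11 catenins, the cytoplasmic partners of classical cadherins, none passed, and 13 of 189 class tests had an unadjusted p under 0.05, with a median log2 fold change of 0.00. Smallest was Pkp2, a desmosomal armadillo protein, at 10.6, 12.2 and 14.4 CPM in trained and 6.33, 5.89 and 6.68 CPM in control mice in L5 IT (0.99 ± 0.19, SE; adjusted p = 0.344 by edgeR). It was also higher in L5 ET, by 0.80 ± 0.21 (adjusted p = 1.0). Of the atypical cadherins (Fat, Dachsous, Celsr, calsyntenins and desmosomal cadherins), none passed and 13 of 169 tests had such a p, led by the giant cadherins Fat3 (-1.64 ± 0.30; adjusted p = 0.247) and Fat4 (-0.98 ± 0.24; adjusted p = 0.377) in the vascular and leptomeningeal class.

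Of the nectins and afadin, immunoglobulin-type adhesion proteins of the same junctions, 8 of 99 tests had an unadjusted p under 0.05, smallest for Nectin3 in L4/5 IT (-0.62 ± 0.17) and L6 IT (-0.81 ± 0.24). Proteins that cut or bind cadherins had 7 of 256, smallest for Ptprm in Vip (0.50 ± 0.19) and Plekha7 in L4/5 IT (-0.55 ± 0.20). Protocadherin signalling partners had 12 of 248, smallest for Ptk2b, the kinase Pyk2, in Lamp5 (0.92 ± 0.20; adjusted p = 0.383 by edgeR) and Abi1, an actin regulator of the WAVE complex, in the vascular and leptomeningeal class (1.35 ± 0.28; adjusted p = 0.314). Regulators of the protocadherin clusters had 4 of 218, smallest for the cohesin subunit Smc3 in OPC (-0.53 ± 0.23) and astrocytes (0.35 ± 0.15). The shares of the clusters given with Cdh8 differed between mice for Fat3, Fat4 and Abi1 as well, and their part was not tested. Adjusted p-values by edgeR not given here ranged up to 1.0, and 4.03% of all tests had an unadjusted p under 0.05.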

How the data were processed

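Nuclei of the caudal forelimb area of 3 trained and 3 control mice were profiled by single-nucleus RNA sequencing. The authors deposited UMI counts per gene and nucleus, made with Cell Ranger 4.0.0 on mm10, per the submitters' processing notes. Not given in the sources used here: intron counting, the use of strand, the barcode filter, any equalising of depth, and whether repeat sequencing runs of a mouse were joined. The deposited counts held 51926 barcodes. Of these, 243 failed a filter (at least 500 genes, at most 5% mitochondrial UMIs) and 2391 were removed as doublets by Scrublet at an expected 6% (3.29 to 5.70% per mouse), which left 49292 nuclei. All deposited barcodes together held 402280889 UMIs. Nuclei were clustered with scanpy 1.11.5 (1968 variable genes with no member, 30 components, 20 neighbours, Leiden resolution 1.0). A cluster could take a class name where at least 3 markers of the class were detected and at least 1 was among the cluster's 10 leading genes. The class with most such leading markers was taken, and mean marker level settled ties. L5 IT rested on 1, Deptor, with Il1rapl2 of the L4/5 IT markers also among its leading genes, and the main L5 ET cluster on 1. The OPC cluster also had Gpr17 and Neu4 of the differentiating oligodendrocyte markers among its leading genes. The differentiating oligodendrocyte cluster had Opalin, St18 and Mobp of the oligodendrocyte markers, as many as of its own (9630013A20Rik, Bcas1 and Enpp6). UMIs were summed per mouse and class, and classes with at least 20 nuclei in each mouse were fitted with edgeR 4.0.16 (TMM, filterByExpr, quasi-likelihood test) in R 4.3.3, with Benjamini-Hochberg adjustment over all genes of a class. DESeq2 1.42.0 was an alternative. The test scripts were tested on simulated data. Printed CPM are without TMM.

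The mice are separate animals and groups share no mouse. Shares have Wilson 95% intervals, and the limit of a count of 0 is 3 counts. Gene positions are from GENCODE M21 on mm10 and promoter windows (250 bases before to 50 after the start) from RefSeq on GRCm38.p6. The members, lists and tests were chosen with earlier results of these data known. Genes were named by this rule: the 20 members with most UMIs, the member of each class with the largest ratio of its mean CPM to its median over classes (from 10 CPM), the 15 member and class pairs of smallest p, the 5 members of smallest p over all nuclei, and the 2 pairs of smallest p per related list. Other members, other-strand neighbours and pairs named beside these were chosen after their values were seen. The planned fit of 1 class against the rest was not run, since no member was called.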

Additional observations from a re-analysis of the deposited data

Results flagged for a closer look

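In astrocytes, Cdh20 stood at 1554 CPM in trained mouse 2, far from the other 5 mice: its gap to the nearest was 0.663 of the whole range, above Dixon's critical value for 6 mice. It was 1 of 41 levels examined this way, and chance gives about 1 in 20. For 4 members the groups lay apart in opposite directions in 2 classes: all trained mice lay above all controls in one class and below them in another. Of all class tests over all genes, 4.05% had the trained mice wholly above the controls and 5.42% wholly below. The share of all genes with both directions was not counted, so the 4 members cannot be read as an excess. For Pcdh17 the log2 difference of effects was 1.01 ± 0.17 (SE) for Cluster 10 minus astrocytes, 0.81 ± 0.15 for L5 IT minus astrocytes and 0.77 ± 0.15 for L2/3 IT minus astrocytes, with adjusted p-values of 0.00858, 0.0244 and 0.0247 by edgeR. For Cdh20 it was 1.14 ± 0.24 for astrocytes minus L5 IT (adjusted p = 0.0510) and 1.55 ± 0.34 for astrocytes minus the microglia and macrophage class (adjusted p = 0.110). For Cdh12 it was 0.49 ± 0.13 for L6 CT minus Sst (adjusted p = 0.788). For Pcdh15 it was 0.83 ± 0.24 for Cluster 10 minus astrocytes (adjusted p = 0.323) and 1.04 ± 0.38 for Cluster 10 minus differentiating oligodendrocytes (adjusted p = 0.722). These tests were added after the data were seen, on pairs taken because their groups lay apart in opposite directions, so their p-values are no independent support. Without control mouse 1, those of Pcdh17 were 0.149, 0.217 and 0.285, and without trained mouse 6 they were 0.176, 0.0850 and 0.0519.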

How the results depend on the processing

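No paired analysis was possible because the groups share no mouse numbers. Members called within classes numbered 0 with library totals in place of TMM, the mitochondrial percent as a covariate, doublets kept, Leiden resolution 0.5 or the members among the variable genes. They numbered 1 of 403 tests with DESeq2 (0.0611% of all tests) and 1 of 412 with the median UMI count as a covariate (0.0318% of all tests). With no filter on low counts they numbered 16 of 606 tests (0.221% of all 412958 tests were then called). They numbered from 0 to 5 when single mice were left out, the 5 of 430 tests without trained mouse 6 (0.102% of all tests). Over all nuclei, 0 members were called under all 13 alternatives. Genes of the related lists called numbered 0, against 2 with DESeq2, 9 with no filter and 0 to 5 without single mice, the 5 again without trained mouse 6. The summed clustered protocadherin level of 0.847 CPM was 0.684 as a mean per nucleus and 0.812 to 0.875 without single mice. The leading class held for 26 members at Leiden resolution 0.5, for 28 with doublets kept, for 30 with the members among the variable genes and for 29 to 31 without single mice, where Pcdh10 and Pcdh11x moved to OPC without trained mouse 6. At resolution 0.5 no fitted class bore the name of the former leading class of Pcdh9, Pcdh11x, Pcdh17 and Cdh8. With doublets kept the same held for Cdh8, so these are changes of the classes. Of the fold changes of named pairs under all alternatives, 257 kept their direction and side of the threshold and 11 passed it, and none reversed. Of the differences of effects 48 kept both, 5 passed the threshold and 11 lost it. The cause of the other changes was not tested. The named pairs were picked for small p in the main fit, and the alternatives used the same mice. Reversals were thus unlikely from the start, and their absence is no independent support. The 3 mice per group and few nuclei in the vascular classes limit what could be detected.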
